A study of Mus musculus with 3 samples.

Results

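The joint lubricin and hyaluronan genes are 8 of the 26970 genes in the deposited table: Prg4, Has1, Has2, Has3, Cd44, Hyal1, Hyal2 and Tnfaip6. These genes were taken by symbol, with earlier results of these data known. They were measured by poly(A) RNA sequencing of mandibular condyles, the bony heads of the lower jaw, from 4-month-old mice of 3 genotypes. WT mice carry both Dspp alleles, Dspp+/- mice lack 1 allele and Dspp-/- mice lack both. The knockout is global and on the C57BL/6 background, and the condyles were dissected with cartilage and subchondral bone still joined. The table gives 1 value per gene and genotype, so there are no replicates and no test between genotypes was possible. The labels speak of triplicate samples with a library each, and whether a value stands for 1 library or for several combined is not given in the sources used here. The 3 columns are called libraries below, and the counting intervals take each as 1 set of fragments. Condyles of 3 animals were pooled for WT and for Dspp+/-, while the number of animals in the Dspp-/- library is not given in the sources used here.

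A joint surface is kept slippery by lubricin and hyaluronan. Lubricin, the product of Prg4, is a mucin-like glycoprotein that cells of the superficial cartilage and the synovial lining secrete onto the articular surface. Hyaluronan is a long unbranched sugar chain that the membrane enzymes encoded by Has1, Has2 and Has3 extrude from the cell. Cd44 encodes its main cell surface receptor, Hyal1 and Hyal2 encode hyaluronidases, and Tnfaip6 encodes TSG-6, a secreted protein that loads heavy chains of inter-alpha-inhibitor onto hyaluronan.

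In both Dspp libraries Prg4 was higher and Cd44 lower than in WT. Prg4 was at 43.8 (WT), 73.4 (Dspp+/-) and 57.2 FPKM (Dspp-/-), and Cd44 had 49.1, 32.7 and 40.5 FPKM in the same order. The hyaluronidase genes were lower in both, and Tnfaip6 and Has2 were lower in Dspp+/- and near their WT level in Dspp-/-. FPKM is the number of fragments per kilobase of gene, scaled to library depth, and values are comparable between genes because they are divided by length. The unit is not named in the table and was read from the values, since for 26173 of the 26641 genes with an exon length in GENCODE M21, the value times that length is a whole number of fragments times a constant in all 3 libraries. These fragments give the 95% Clopper-Pearson interval printed after each fold, which covers counting error only and says nothing of the spread between mice. The libraries held 20241571 (WT), 23613591 (Dspp+/-) and 22253165 (Dspp-/-) fragments. In bulk tissue, fewer cells of a type and less RNA per cell cannot be told apart.

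The libraries differed in other respects that cannot be told apart from genotype. Mitochondrially encoded genes took 9.58% (WT), 16.5% (Dspp+/-) and 16.1% (Dspp-/-) of fragments. Xist, the RNA of the inactive X chromosome in females, had 2 fragments in WT and 12084 and 10563 in the Dspp libraries, so sex and genotype cannot be told apart. Dspp itself is not analysed here, and no check of the labels against it was made.

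The lubricin coding sequence is shown first because of its repeats. The stretch below is 168 bases of the 3663 coding bases of Prg4 in GENCODE M21, at chr1:150455721-150455888 of GRCm38 on the minus strand. Capitals mark CAAGGAGCCTGAACC, the most frequent run of 15 bases, which occurs 47 times in the coding sequence and 5 times in this stretch.
Prg4 repeat: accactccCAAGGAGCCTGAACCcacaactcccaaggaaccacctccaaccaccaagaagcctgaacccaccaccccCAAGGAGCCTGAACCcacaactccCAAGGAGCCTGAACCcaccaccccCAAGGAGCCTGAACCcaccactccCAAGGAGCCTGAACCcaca
Of all runs of 21 bases in the coding sequence, 33.6% occur there more than once. Reads were 150 bases long, and repeats of that length within the gene were not counted. The effect of the repeats on the Prg4 value was not tested. Against other genes, 2.37% of the 100-base runs of Prg4 transcripts also occur in another gene, in each case Tpr.

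The 3 synthases are similar enough in sequence to ask whether their reads can be separated. The 60 coding bases below are the window of Has2 that is most alike in the other synthases, and capitals mark the 43 bases that all 3 share. They lie at chr17:17844190-17844249 (Has1, minus strand), chr15:56668222-56668281 (Has2, minus strand) and chr8:106878212-106878271 (Has3, plus strand) of GRCm38.
Has1: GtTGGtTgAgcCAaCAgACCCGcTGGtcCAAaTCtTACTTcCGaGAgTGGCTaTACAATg
Has2: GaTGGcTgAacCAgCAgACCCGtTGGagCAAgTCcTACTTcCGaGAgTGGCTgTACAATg
Has3: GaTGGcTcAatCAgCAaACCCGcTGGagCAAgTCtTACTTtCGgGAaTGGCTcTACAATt
Has2 matches each of the others at 50 of the 60 bases in this window. No 100-base run of Has1, Has2 or Has3 occurs in another synthase gene, so even in the most alike window the fragments of the 3 genes remain distinct at that length.

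The genes were counted at the following places of the deposited table, whose build its text does not name and which are not GRCm38 positions. Prg4 lies on chromosome 1 from 150325163 to 150341916, Cd44 on chromosome 2 from 102641486 to 102732010 and Tnfaip6 on chromosome 2 from 51928021 to 51946698. Hyal2 lies on chromosome 9 from 107445144 to 107449978 and Hyal1 beside it from 107454126 to 107458909. The synthases are on 3 chromosomes, with Has1 on chromosome 17 from 18063585 to 18075467, Has2 on chromosome 15 from 56529023 to 56557935 and Has3 on chromosome 8 from 107596874 to 107611198. Each value is that of a whole gene, over 3 merged exons for Has1 to 19 for Cd44 in GENCODE M21, so the variant exons of Cd44 are not resolved.

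**Figure D1:**
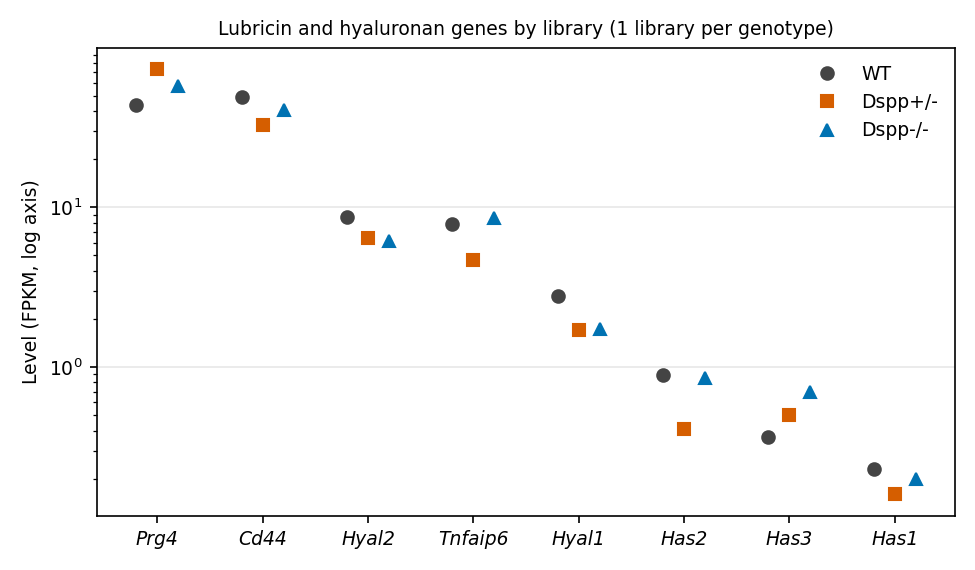
The level of each gene in FPKM on a log axis, with 1 point per library for WT, Dspp+/- and Dspp-/-. Prg4 and Cd44 lie above 30 FPKM in all 3 libraries and change places between WT and the Dspp libraries, and the synthases lie under 1 FPKM.

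Prg4 and Cd44 were the most abundant of the 8 genes in every library. In WT, Cd44 was 1.12 times the level of Prg4 (interval 1.08 to 1.17). In Dspp+/- the order was turned, with Prg4 at 2.25 times the level of Cd44 (2.17 to 2.33), and in Dspp-/- Prg4 was at 1.41 times (1.36 to 1.46). Prg4 was above 97.1% of all genes of the table in WT, 98.4% in Dspp+/- and 98.0% in Dspp-/-. Next came Hyal2 and Tnfaip6, which did not differ beyond counting error in WT (ratio 1.11, interval 0.959 to 1.29). Hyal2 was higher than Tnfaip6 in Dspp+/- (1.37, 1.16 to 1.63), and Tnfaip6 was higher than Hyal2 in Dspp-/- (1.41, 1.22 to 1.63). Hyal1 came next, and the synthases were lowest in all 3 libraries.

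Lubricin was the member with the largest positive difference from WT in Dspp+/-. Its level rested on 3791 (WT), 7418 (Dspp+/-) and 5446 fragments (Dspp-/-). Both Dspp libraries were above WT, and the heterozygous library was above the null library. Relative to WT the level was 1.68 (1.61 to 1.74) in the heterozygous and 1.31 (1.25 to 1.36) in the null library, and Dspp-/- was at 0.779 of Dspp+/- (0.752 to 0.807). Of the exon length of Prg4, 4.77% overlaps Tpr on the other strand. Tpr, a nuclear pore gene, had 12.2, 14.3 and 15.6 FPKM in WT, Dspp+/- and Dspp-/-, above WT in both Dspp libraries as Prg4 was. The part of this overlap in the Prg4 difference was not tested.

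Cd44, the hyaluronan receptor of many cell types including leukocytes and osteoclasts, went the other way. Its 6732 fragments in WT compare with 5230 in Dspp+/- and 6112 in Dspp-/-. Both Dspp libraries were below WT, with the heterozygous library the lowest. The fold was 0.666 (0.642 to 0.691) in the heterozygous and 0.826 (0.798 to 0.855) in the null library. No 100-base run of Cd44 occurs in another gene. The ratio of Prg4 to Cd44 within a library does not depend on how libraries are scaled, and it was examined after the values were seen. Against WT this ratio was 2.52 times as large in Dspp+/- (2.39 to 2.66) and 1.58 times in Dspp-/- (1.499 to 1.67).

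The hyaluronidase genes were lower by a like amount in both Dspp libraries. Hyal2, whose product sits at the cell surface and cuts long chains, was at 8.75 (WT), 6.38 (Dspp+/-) and 6.13 FPKM (Dspp-/-). Relative to WT it stood at 0.729 (0.646 to 0.823) in Dspp+/- and 0.701 (0.618 to 0.794) in Dspp-/-. Hyal1, whose product works in lysosomes, was at 2.79 (WT), 1.69 (Dspp+/-) and 1.74 FPKM (Dspp-/-). Its fold was 0.608 (0.490 to 0.752) and 0.623 (0.502 to 0.773). For neither gene were the Dspp libraries apart beyond counting error, with Dspp-/- to Dspp+/- folds of 0.961 (0.844 to 1.09) for Hyal2 and 1.03 (0.812 to 1.297) for Hyal1. The value of Hyal1 is uncertain, because 50.8% of its exon length is also annotated to Naa80 on the same strand. Naa80, an acetyltransferase gene, had 7.88, 7.76 and 7.01 FPKM in WT, Dspp+/- and Dspp-/-, and how fragments of the shared part were assigned is not given in the sources used here.

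The sequences before the start sites of Hyal2 and Hyal1 are shown because the genes are neighbours whose differences were alike. Each is the 250 bases before the RefSeq start on GRCm38.p6, plus strand, at chr9:107568913-107569162 for Hyal2 and chr9:107576700-107576949 for Hyal1. Capitals mark matches on either strand to the GC box GGGCGG and the CCAAT box.
Hyal2 promoter: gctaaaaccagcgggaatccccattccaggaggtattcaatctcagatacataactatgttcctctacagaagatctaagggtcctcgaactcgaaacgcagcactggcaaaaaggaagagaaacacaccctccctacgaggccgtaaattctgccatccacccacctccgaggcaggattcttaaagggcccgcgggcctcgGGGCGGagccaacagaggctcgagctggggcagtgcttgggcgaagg
Hyal1 promoter: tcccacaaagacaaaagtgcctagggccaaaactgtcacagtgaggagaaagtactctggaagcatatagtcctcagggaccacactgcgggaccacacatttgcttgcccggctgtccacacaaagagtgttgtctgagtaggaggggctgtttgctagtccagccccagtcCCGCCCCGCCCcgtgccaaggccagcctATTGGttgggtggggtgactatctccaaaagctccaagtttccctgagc
Hyal2 holds 1 GC box, and Hyal1 holds 2 GC boxes that overlap and 1 CCAAT box. The GC box occurs in 32.7% and the CCAAT box in 33.8% of 32851 promoter windows of this length, so these matches are common ones.

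Tnfaip6 was the member that separated the Dspp genotypes most among the 5 members averaging 1 FPKM or more. It was at 7.89 (WT), 4.66 (Dspp+/-) and 8.62 FPKM (Dspp-/-), from 273, 188 and 328 fragments. The heterozygous library was the low one, and WT and the null library were within counting error of each other. Relative to WT the level was 0.590 (0.488 to 0.713) in the heterozygous and 1.09 (0.928 to 1.29) in the null library. Between the Dspp libraries, Dspp-/- was at 1.85 times Dspp+/- (1.54 to 2.23). The 250 bases before its RefSeq start, at chr2:52037863-52038112 of GRCm38.p6 on the plus strand, are given because TSG-6 is an inflammation-induced gene. Capitals mark the letters TGAGTCA of the AP-1 motif, along with 1 GC box. The other capitals are 2 matches to the CCAAT box.
Tnfaip6 promoter: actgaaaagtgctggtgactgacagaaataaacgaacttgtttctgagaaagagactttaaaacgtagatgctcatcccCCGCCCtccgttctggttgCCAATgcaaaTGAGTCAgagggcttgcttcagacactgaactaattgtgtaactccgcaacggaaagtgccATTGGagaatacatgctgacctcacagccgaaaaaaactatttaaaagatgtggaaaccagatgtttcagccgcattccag
The AP-1 letters occur in 4.46% of promoter windows of this length. Of the 5 members with a promoter in the RefSeq table, which are Has1, Cd44, Hyal1, Hyal2 and Tnfaip6, it was found in Tnfaip6. Searches for the cAMP response element TGACGTCA, TATAAA and the NF-kB motif gave 1 match, the response element in Has1, and these occur in 1.55%, 12.4% and 1.41% of windows. Prg4, Has2 and Has3 had no entry.

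**Figure D2:**
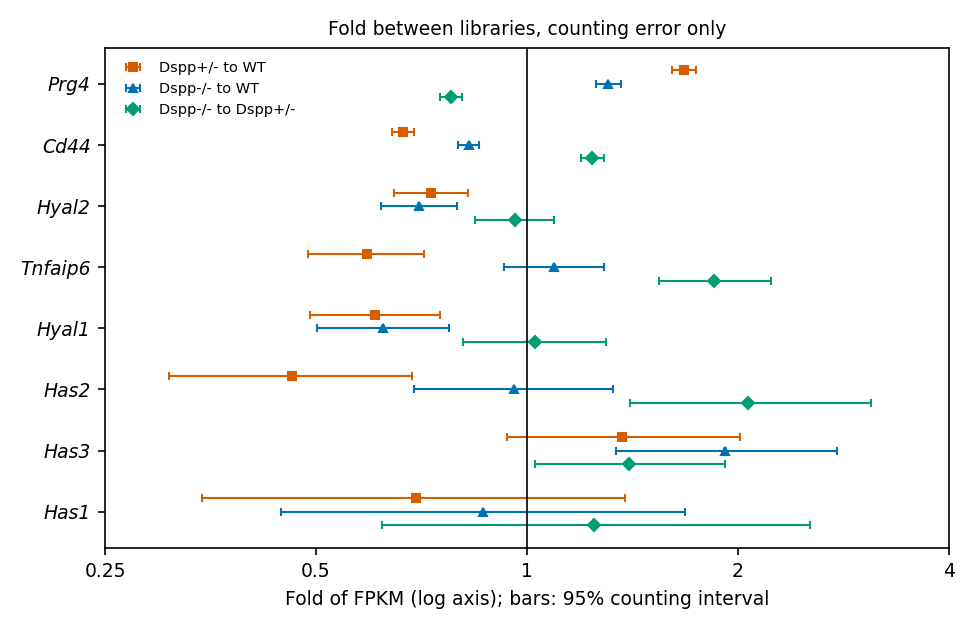
Fold of FPKM between pairs of libraries for each gene on a log axis, with bars for the 95% counting interval. Prg4 alone of the genes averaging 1 FPKM or more lies right of 1 in both comparisons with WT beyond its bars, while Hyal1, Hyal2 and Cd44 lie left of 1 in both.

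The hyaluronan synthases were at low levels, and their mix differed between libraries. Has2, the synthase of most connective tissues, was at 0.886 (WT), 0.410 (Dspp+/-) and 0.848 FPKM (Dspp-/-), from 76, 41 and 80 fragments. Relative to WT it stood at 0.462 (0.308 to 0.685) in the heterozygous library, again the low one, and at 0.957 (0.691 to 1.33) in the null library. Has3 had 0.364, 0.498 and 0.697 FPKM from 47, 75 and 99 fragments, with the null library the highest. Its fold was 1.37 (0.937 to 2.01) in the heterozygous and 1.92 (1.34 to 2.77) in the null library. Has1 had 0.230, 0.159 and 0.199 FPKM from 21, 17 and 20 fragments, and no pair of libraries differed beyond counting error.

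Together the synthases summed to 1.48 (WT), 1.07 (Dspp+/-) and 1.74 FPKM (Dspp-/-). Of these sums Has2 made up 59.9%, 38.4% and 48.6%, and Has3 24.6%, 46.7% and 40.0%. In WT, Has2 was at 2.43 times the level of Has3 (1.67 to 3.58), while in Dspp+/- Has3 was at 1.21 times the level of Has2 (0.820 to 1.82), within counting error. The ratio of Has2 to Has3, also examined after the values were seen, was 0.338 of its WT value in Dspp+/- (0.193 to 0.591) and 0.4997 in Dspp-/- (0.304 to 0.819). Small parts of Has2 and Has3 overlap genes on the other strand, 4.30% of the exon length with Has2os and 5.52% with Chtf8. Has2os, the antisense RNA of Has2, had 24, 25 and 23 fragments in WT, Dspp+/- and Dspp-/-, and without strand its reads cannot be told from those of Has2 where they overlap. For Chtf8, 1 entry had 2, 4 and 4 fragments in the same order, and another was not in the deposited table, so its level is not known. The part of this overlap in the Has3 values was not tested.

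**Figure D3:**
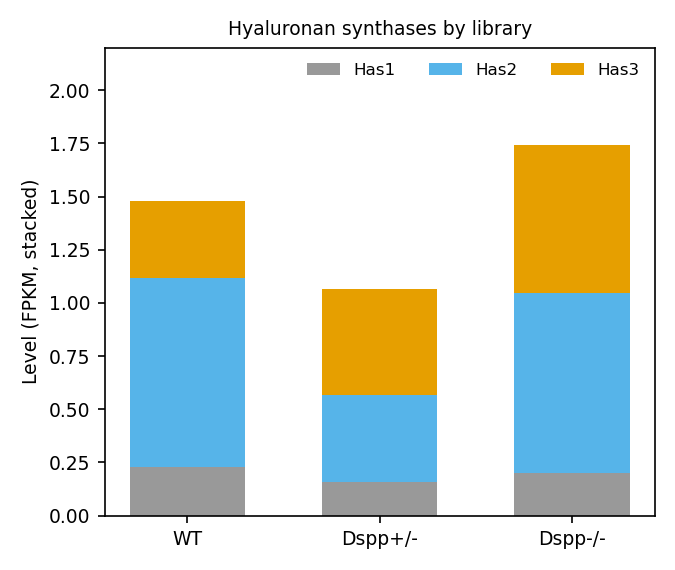
Stacked levels of Has1, Has2 and Has3 in FPKM for each library, with the axis starting at 0. The sum is lowest in Dspp+/- at 1.07 FPKM, where the Has3 part is larger than the Has2 part.

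Genes were counted on log2 ratios of FPKM + 1 with a threshold of 2-fold. On this scale none of the 5 members averaging 1 FPKM or more passed in any comparison. The 3 synthases were below that filter, and with 1 added a gene under 1 FPKM cannot come out 2-fold lower. Without the added 1, Has2 was at 0.462 of WT in Dspp+/-, and Dspp-/- was at 2.07 times Dspp+/-. Of all 13026 genes averaging 1 FPKM or more, 4.88% were at least 2-fold higher and 2.86% lower in Dspp+/- than in WT. In Dspp-/- against WT these shares were 4.05% and 1.37%, and in Dspp-/- against Dspp+/- 0.852% and 0.798%. The median log2 ratio of the 5 members, without the synthases, was -0.49 in Dspp+/- and -0.27 in Dspp-/-, beside 0.058 and 0.0070 over all genes. Housekeeping scaling gave 519 higher and 520 lower genes in Dspp+/- in place of 636 and 373. By the counting interval of the fold, 1 of the 5 was above and 4 below WT in Dspp+/-, where 39.2% of 12700 genes with whole fragments were above and 28.4% below. In Dspp-/- 1 was above and 3 below, where 34.0% of genes were above and 33.6% below. Over all 8 members, 1 was above and 5 below WT in Dspp+/-, and 2 were above and 3 below in Dspp-/-. Between the Dspp libraries, Dspp-/- was above Dspp+/- for 2 of the 5 and below for 1, where 25.4% of genes were above and 34.4% below. Depth therefore resolves small differences between libraries in most genes, and without replicates these cannot be set against the spread between mice. Both comparisons use the same WT library.

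A wider set of hyaluronan genes was compared by role. Of 44 genes listed, 39 were in the table and 31 averaged 1 FPKM or more. On the log2(FPKM + 1) scale, the Dspp+/- library had 1 of the 31 at least 2-fold above WT and 5 below, and the Dspp-/- library had 1 above and 1 below, to be read against the percentages over all genes above. Their median log2 ratio was -0.29 in Dspp+/- and -0.18 in Dspp-/-, beside 0.058 and 0.0070 over all genes. Some counts below are by sign alone, and the share of all genes on each side of WT was not counted.

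The genes that tie hyaluronan into cartilage matrix held 3 of the 5 lower genes. Acan, which encodes aggrecan, the proteoglycan that binds hyaluronan chains in cartilage, was at 84.1 (WT), 20.4 (Dspp+/-) and 40.4 FPKM (Dspp-/-), folds of 0.242 (0.233 to 0.251) and 0.481 in the Dspp libraries. Hapln1, the link protein that locks aggrecan to hyaluronan, had 46.8, 14.99 and 36.2 FPKM. Hapln4, another link protein gene, had 2.54, 0.540 and 0.870 FPKM. All 4 genes of this list averaging 1 FPKM or more were below WT in both Dspp libraries, and Vcan, which encodes versican, had 8.63, 3.84 and 5.89 FPKM.

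Of the degradation genes other than the members, all 5 averaging 1 FPKM or more were below WT in both Dspp libraries. None passed 2-fold on the log2(FPKM + 1) scale. Hexa, a lysosomal hexosaminidase subunit and the most abundant, was at 178 (WT), 99.5 (Dspp+/-) and 108 FPKM (Dspp-/-). Cemip, which encodes a hyaluronan-binding protein needed for its breakdown outside lysosomes, had 6.15, 3.02 and 2.80 FPKM, which without the added 1 are folds of 0.491 (0.451 to 0.534) and 0.456 (0.417 to 0.498). On the supply side, none of the 9 genes for UDP-sugar precursors passed 2-fold. Ugp2, the most abundant, had 122, 188 and 166 FPKM, while Ugdh, which makes UDP-glucuronate, had 8.36, 6.42 and 7.42 FPKM.

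The other receptors lay on both sides of WT, with 3 of 5 above it and 2 below in each Dspp library. Hmmr, a hyaluronan-binding protein better known for its place on the mitotic spindle, was at 1.16 (WT), 3.40 (Dspp+/-) and 3.36 FPKM (Dspp-/-), and was the gene at least 2-fold higher in both. Stab2, a scavenger receptor of sinusoidal endothelium, had 0.395, 1.79 and 1.67 FPKM, just short of 2-fold on the log2(FPKM + 1) scale. Stab1, the most abundant of this list, had 12.5, 8.73 and 9.17 FPKM, and Layn, which encodes layilin, had 3.59, 1.55 and 2.95 FPKM. Among partners of CD44 at the membrane, Spp1, the osteopontin gene, had 2474, 814 and 1661 FPKM, and Mmp14, a membrane protease gene, had 114, 47.3 and 66.1 FPKM. Both were at least 2-fold lower in Dspp+/-, while the linker genes Ezr and Msn had log2 ratios of 0.066 and -0.070 there. Of the heavy chain partners of TSG-6, 2 genes averaged 1 FPKM or more and neither passed 2-fold. Itih5, the most abundant, had 8.27, 8.09 and 11.0 FPKM, and Ptx3, which encodes pentraxin 3, had 1.64, 1.56 and 1.64 FPKM.

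**Figure D4:**
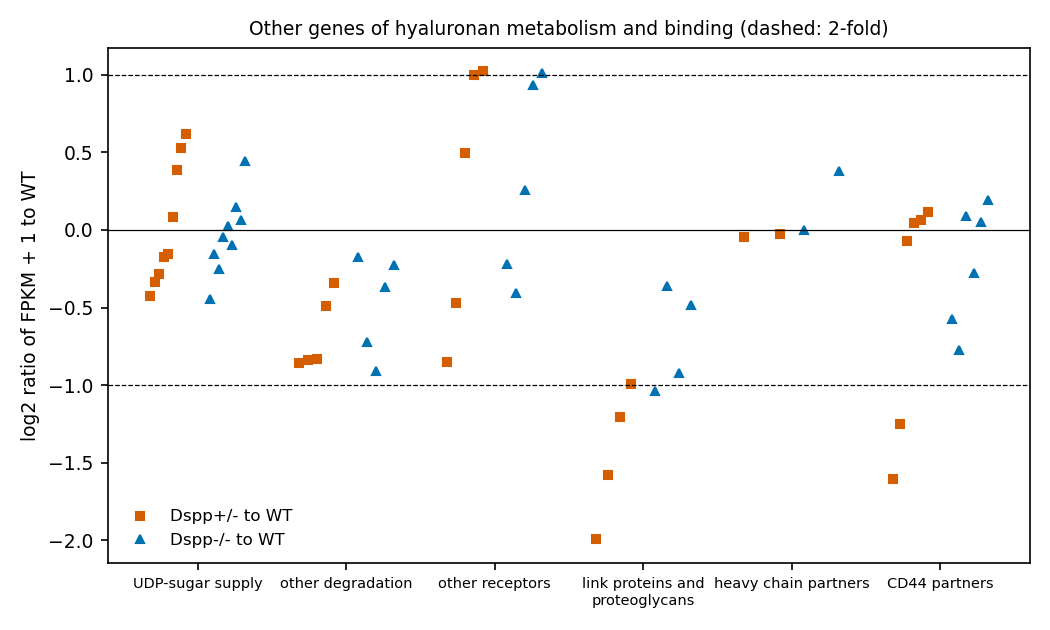
The log2 ratio of FPKM + 1 to WT for other hyaluronan genes averaging 1 FPKM or more, grouped by role, with squares for Dspp+/- and triangles for Dspp-/- and dashed lines at 2-fold. The link protein and proteoglycan genes lie below 0 in both libraries, and the receptors lie on both sides.

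Marker genes of the cell types in a condyle differed in level between libraries beside these genes. Counts above or below WT are by sign alone, and the share of all genes on each side was not counted. Over all genes the median log2 ratio was 0.058 in Dspp+/- and 0.0070 in Dspp-/-. Of 10 genes of the superficial zone and synovial lining, Prg4 included, 7 were above WT in Dspp+/- and 6 in Dspp-/-, with summed levels of 409, 383 and 336 FPKM in WT, Dspp+/- and Dspp-/-. Vcam1, an adhesion molecule gene, had 6.67, 14.4 and 10.6 FPKM, Sema3c had 4.97, 7.61 and 7.19, and Clic5, a chloride channel family gene, had 13.7, 20.5 and 18.0. Htra1, a secreted protease gene and the most abundant, had 205, 89.2 and 131 FPKM, and Cilp had 99.1, 144 and 76.3. Pdpn had 9.33, 5.55 and 7.37 FPKM and Thy1 had 6.53, 5.97 and 5.19, below WT in both Dspp libraries. The list held values on both sides of WT, and its part in the Prg4 difference was not tested.

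All 8 chondrocyte genes averaging 1 FPKM or more were below WT in both Dspp libraries, with sums of 1665, 470 and 745 FPKM over the 10 listed, where Matn3 and Epyc were under that mean. Relative to Acan in the same library, Prg4 was 6.93 times as high in Dspp+/- as in WT (6.56 to 7.31) and 2.72 times in Dspp-/- (2.58 to 2.86). Acan itself was at 0.242 and 0.481 of WT there, and this ratio too was examined after the values were seen. All 8 osteoblast genes were also lower in both, with sums of 10828, 2935 and 5732 FPKM, and all 7 osteoclast genes, with sums of 2255, 803 and 1315 FPKM. Of the tendon and fibroblast genes 6 of 7 were below WT in Dspp+/- and 5 in Dspp-/-, with sums of 676, 247 and 452 FPKM. The part of these lists in the lower Cd44, Hyal1 and Hyal2 values was not tested.

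Cd44 is also a leukocyte gene, and all 8 pan-leukocyte genes were above WT in both Dspp libraries, with sums of 113, 250 and 241 FPKM. Cd44 relative to Ptprc, the CD45 gene of all leukocytes, was 0.204 of its WT value in Dspp+/- (0.188 to 0.222) and 0.225 in Dspp-/- (0.208 to 0.244). Relative to the osteoclast gene Ctsk it was 2.06 times its WT value in Dspp+/- (1.97 to 2.15) and 1.48 times in Dspp-/- (1.42 to 1.54). Other bone and cartilage genes gave like ratios in Dspp+/- and Dspp-/-. These were 2.75 and 1.72 for Acan, 2.59 and 1.53 for Col1a1, and 2.03 and 1.23 for Spp1. Ptprc itself was at 3.26 and 3.66 times WT in Dspp+/- and Dspp-/-, and Ctsk at 0.323 and 0.558. These ratios were also examined after the values were seen. The log2 ratio of Cd44 to WT, -0.57 in Dspp+/- and -0.27 in Dspp-/-, was above those of all 7 osteoclast genes in Dspp+/- and of all but Atp6v0d2, at -0.19, in Dspp-/-, and below those of the 8 leukocyte genes in both. It was also above those of all 8 osteoblast genes in both, the nearest being Runx2 at -0.78 and -0.34. All 8 neutrophil genes were at least 2-fold higher in both Dspp libraries, with sums of 599, 2595 and 3521 FPKM. Skeletal muscle genes summed to 8448, 11620 and 9847 FPKM, of which Acta1 held 5609, 8162 and 7150. Of these genes 3 of 5 were above WT in each Dspp library, Acta1 and Ckm in both, Tnnt3 in Dspp+/- and Myl1 in Dspp-/-. Myh4 went the other way, with 124, 18.2 and 111 FPKM, and was at least 2-fold lower in Dspp+/-. Of the 5 tooth genes listed, Amelx, Enam and Amtn were not in the table. Ambn had 3, 22 and 19 fragments, under 1 FPKM in each library. Dmp1, which bone cells also express, had 191, 70.4 and 79.5 FPKM.

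**Figure D5:**
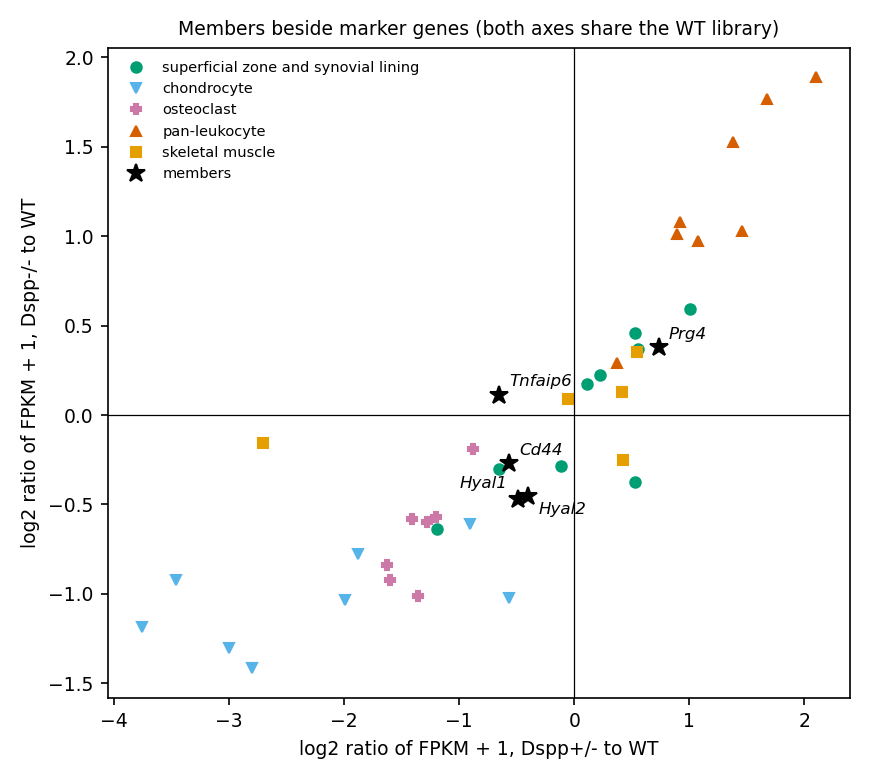
The log2 ratio of FPKM + 1 in Dspp+/- (horizontal) and Dspp-/- (vertical) to the same WT library, for the 5 members averaging 1 FPKM or more (stars) and for marker genes. Prg4 lies in the upper right, as do all 8 pan-leukocyte genes, several superficial zone genes and the muscle genes Acta1 and Ckm. The other muscle genes lie outside it. Cd44, Hyal1 and Hyal2 lie in the lower left nearer to 0 than most chondrocyte and osteoclast genes. The superficial zone genes Htra1, Pdpn and Thy1 lie in the lower left.

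The genes whose pattern was most like that of each member were found among 7133 genes averaging 5 FPKM or more, by the larger of the 2 differences in log2 ratio to WT over the 3 libraries. For Prg4 these were Ndufa10, a respiratory chain subunit gene with 32.4, 54.4 and 42.3 FPKM, Klhl41, a muscle gene, and Gm9821. They lay within 0.0033, 0.011 and 0.021 of Prg4, and 71 genes lay within 0.1. For Cd44 they were Lgr4, Tvp23b and Anxa2, with 97 genes within 0.1. For Hyal1 they were Lrpap1, Rhobtb1 and C130074G19Rik, and for Hyal2 Pip5k1c, Rbfox2 and Polr2i, with 115 and 150 genes within 0.1. Tnfaip6 had the fewest, 7 genes within 0.1, led by Igsf10 with 16.3, 9.91 and 17.6 FPKM, Ackr4 with 7.12, 4.05 and 7.62, and Insig1. Likeness over 3 libraries is a description, and it rests on ratios that share WT.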

How the data were processed

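Condyle RNA was sequenced in pairs of 150 bases, with 1 deposited column per genotype, and samples were grouped by the genotype in their labels. The authors deposited 1 value per gene and genotype, read here as FPKM. The submitters' processing notes name FastQC 0.11.5, HISAT2 2.1.0, StringTie 1.3.3b and DESeq 1.28.0, and a human build, hg38, although the table holds mouse genes. Where some genes take a larger share of a library, the FPKM of the others is lower.

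Fragments were recovered as FPKM times merged exon length (GENCODE M21) over 1 constant per library. Values were whole within 0.1 fragment for 98.8%, 98.9% and 98.8% of genes under 100 fragments in WT, Dspp+/- and Dspp-/-. Genes averaging 1 FPKM or more were compared on log2(FPKM + 1), which understates low genes, and recovery was tested on simulated data. Folds were not given at or under 3 fragments. Folds have 95% Clopper-Pearson intervals, and changes in a ratio of 2 genes have conditional exact intervals. The study's Kruskal-Wallis test could not be used with 1 value per genotype. Genes named are the members, the most abundant gene of each hyaluronan or lubricin list and its genes at least 2-fold apart from WT. The 3 most alike genes per member and defining markers are also named. Other list genes were named after their values were seen. Members and lists were chosen with earlier results of these data known. Alternatives were pseudocounts, filters, scalings and thresholds. Promoters are from RefSeq (GRCm38.p6), where 5 of 8 members matched. Scripts ran in Python 3.11.15 with scipy 1.17.1, pandas 2.3.3, matplotlib 3.10.9 and numpy 2.4.6.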

Additional observations from a re-analysis of the deposited data

How the results depend on the processing

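The sign of the log2 ratio held under all 6 alternatives of pseudocount and scaling for 22 of 24 pairs of member and comparison. The exceptions were Has2 in Dspp-/- against WT, from -0.061 to 0.021, and Hyal2 in Dspp-/- against Dspp+/-, from -0.057 to 0.015. Prg4 ranged from 0.59 to 0.85 in Dspp+/- and from 0.31 to 0.48 in Dspp-/-, and Cd44 from -0.71 to -0.46 and from -0.34 to -0.16. Scaling without mitochondrial genes shifted the ratios to WT by 0.12 in Dspp+/- and 0.11 in Dspp-/-, and housekeeping scaling by -0.14 and -0.067.

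No member passed 2-fold under any alternative. The synthases entered only where the filter was dropped, still with 1 added, so this result says little of them. At 1.5-fold, 1 member was higher (Prg4) and 1 lower (Tnfaip6) in Dspp+/- than in WT, and 1 was higher in Dspp-/- than in Dspp+/- (Tnfaip6). Of the wider hyaluronan genes, 1 was higher and 5 were lower in Dspp+/-, and 1 was higher and 1 lower in Dspp-/-. In Dspp+/- the higher gene became 2 with a pseudocount of 0.1 or without mitochondrial genes, 3 at 1.5-fold, and 0 with a pseudocount of 5, a minimum mean of 5 FPKM, median-ratio or housekeeping scaling or 4-fold. The lower genes became 8 with a pseudocount of 0.1, 10 at 1.5-fold and 0 at 4-fold. In Dspp-/- the higher gene became 2 with a pseudocount of 0.1 or at 1.5-fold, and 0 with a pseudocount of 5, a minimum mean of 5 FPKM, housekeeping scaling or 4-fold. The lower gene became 3 with a pseudocount of 0.1, 5 at 1.5-fold, and 0 with a pseudocount of 5, without mitochondrial genes or at 4-fold. Over all genes, the 636 higher and 373 lower genes in Dspp+/- ranged from 124 to 1501 and from 24 to 1166, the 527 and 179 in Dspp-/- from 103 to 1152 and from 6 to 1070, and the 111 and 104 between the Dspp libraries from 15 to 441 and from 13 to 563, with the thresholds of 1.5-fold and 4-fold at the ends. Apart from what the thresholds and filters do by construction, the cause was not tested. Depth limits the synthases, where 17 to 99 fragments leave wide intervals. No paired analysis was possible because each genotype has 1 value per gene.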

Other observations

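Genes for the regulation and processing of lubricin lay on both sides of WT. Of 10 listed, 9 averaged 1 FPKM or more, and by sign alone 6 were below WT in Dspp+/- and 7 in Dspp-/-. The share of all genes below WT by sign was not counted. Their median log2 ratio was -0.50 in Dspp+/- and -0.29 in Dspp-/-, beside 0.058 and 0.0070 over all genes. Pcsk6, a proprotein convertase gene and the most abundant of the list in WT, was at 40.1 (WT), 18.0 (Dspp+/-) and 21.3 FPKM (Dspp-/-), and was at least 2-fold lower in Dspp+/-. Furin, another convertase gene, had 16.1, 11.1 and 11.7 FPKM. Tgfb1, a growth factor gene, had 35.0, 24.2 and 22.5 FPKM, and its receptor gene Tgfbr2 39.2, 24.7 and 31.8. The transcription factor genes Foxo1 and Erg had log2 ratios of 0.084 and -0.043 in Dspp+/-, both within counting error of WT. Creb5 had 1.06, 0.785 and 0.961 FPKM, with a mean under 1 FPKM. The gene at least 2-fold higher in both Dspp libraries was Ctsg, which encodes cathepsin G, a granule protease of neutrophils. It was at 1.29 (WT), 38.3 (Dspp+/-) and 10.7 FPKM (Dspp-/-), beside the higher neutrophil genes of both libraries.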
